A study of Rattus norvegicus with 44 samples.

Results

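The subject of this report is the set of renal glucose and carboxylate transporters, taken as every entry whose gene symbol places it in 1 of 4 solute carrier families (SLC2, SLC5, SLC13 and SLC16). The members, and the gene lists used further on, were chosen with earlier results of these data known. The rule itself used names only, no measured value, and found 41 genes among 32883 entries (28906 distinct symbols), namely 12 of the Slc2 family, 11 of Slc5, 5 of Slc13 and 13 of Slc16. Of these, 32 passed the expression filter of FPKM above 1 in at least 9 animals and were tested together with all 13482 genes that passed it; the other 9 are described by their levels. Kidney RNA was sequenced in 44 male obese ZSF1 rats (ZSF1 OB), 1 library per animal, all with a telemetry device and all dosed through the feed for 6 months, beginning at an age of 22 weeks. Enalapril, an angiotensin-converting enzyme inhibitor, was given at 3 mg/kg/day to 9 animals. Compound 1, a stimulator of soluble guanylate cyclase, was given to 12 animals at 1 and later 3 mg/kg/day. The combination, in which Compound 1 stayed at 1 mg/kg/day beside the same Enalapril dose, was given to 12 animals, and 11 animals received Vehicle. Compound 1 alone and Compound 1 in the combination therefore differed in final dose. All groups, Vehicle included, are the obese hybrid, which carries leptin receptor mutations and becomes hyperglycemic and hypertensive. Lean animals are not analysed here, and the region of the kidney that was homogenized is not stated.

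The tubule recovers filtered sugars and organic acids through carriers arranged in series. SLC5 carriers (SGLT and SMCT proteins) and SLC13 carriers (NaS and NaDC proteins) couple entry into the cell to the sodium gradient. This entry is mostly across the brush border, but Slc13a3 (NaDC3) is basolateral. Most SLC2 carriers (GLUT proteins) let hexoses or urate pass down their gradient, mostly at the basolateral side, while Slc2a13 carries myo-inositol with protons. SLC16 carriers (MCT proteins) move lactate, pyruvate and ketone bodies with protons, and some members carry aromatic amino acids or creatine. SGLT2 in the early proximal tubule takes up most of the filtered glucose, NaDC1 reclaims citrate and other Krebs cycle acids, and GLUT5 carries fructose in the straight part of the proximal tubule.

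Levels are given as FPKM, fragments scaled to transcript length and to the library's mapped fragments, so that genes are compared per length. A triplet of FPKM values stands for the lowest, the median and the highest animal of a group. A gene was called a differentially expressed gene (DEG) at an adjusted p under 0.05 together with a fold change above 1.5 or under 0.66. Tests are limma's moderated test on log2(FPKM + 0.1), two-sided, with Benjamini-Hochberg adjustment over all 13482 genes, and fold changes are on the log2(FPKM + 0.1) scale, which understates the change of low genes.

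The relative depth of the libraries (1 being the typical library) had group medians of 1.15 for Enalapril, 1.01 for Compound 1, 1.02 for the combination and 0.878 for Vehicle. Single libraries ran from 0.811 to 1.38 with Enalapril, 0.860 to 1.36 with Compound 1, 0.845 to 1.28 with the combination and 0.659 to 1.28 with Vehicle. Vehicle animals 1003 and 1004 stood apart from the other Vehicle animals. Of the 32 tested transporters, 8 had their lowest Vehicle level in animal 1003 and 15 in animal 1004, against 3.92% and 30.5% of all tested genes. The sums of 10 markers of the convoluted proximal tubule were 1684 and 1869 FPKM in those 2 animals, the lowest of the Vehicle group, and 1180 FPKM in Compound 1 animal 3001, the lowest of all. The calls and the counts that passed against Vehicle are given with and without them. Mitochondrial transcripts made up 23.3, 31.0 and 43.6% of the summed FPKM with Enalapril, 24.2, 30.9 and 38.3% with Compound 1, 25.9, 32.6 and 42.0% with the combination, and 20.0, 27.7 and 36.9% with Vehicle (lowest, median and highest animal).

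The promoters of 31 of the 41 genes were found in the RefSeq table for build GRCr8. Those of Slc2a5, Slc13a2 and Slc16a3 are shown as the 250 bases before the start site, because these are transporters that were called with the combination, 2 of them higher and 1 lower. Capitals mark a match to any of 7 motifs searched on both strands, GTTAAT (HNF1 half-site), CAAAGTCCA (HNF4), CACGTG (E-box), ACGTG (hypoxia response core, which is contained in the E-box), GGGCGG (Sp1), TATAAA and CCAAT.
Slc2a5 (chr5:165865929-165866178, plus strand): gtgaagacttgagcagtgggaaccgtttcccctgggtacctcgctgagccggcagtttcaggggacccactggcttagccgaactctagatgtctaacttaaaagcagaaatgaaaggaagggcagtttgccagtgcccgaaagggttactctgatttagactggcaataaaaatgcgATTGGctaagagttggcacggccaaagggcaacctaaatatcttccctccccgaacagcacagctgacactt
Slc13a2 (chr10:63817185-63817434, minus strand): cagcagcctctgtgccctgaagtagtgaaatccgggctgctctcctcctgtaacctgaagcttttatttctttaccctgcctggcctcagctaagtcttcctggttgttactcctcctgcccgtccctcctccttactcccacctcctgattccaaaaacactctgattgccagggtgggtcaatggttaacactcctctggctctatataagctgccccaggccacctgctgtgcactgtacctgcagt
Slc16a3 (chr10:106712078-106712327, plus strand): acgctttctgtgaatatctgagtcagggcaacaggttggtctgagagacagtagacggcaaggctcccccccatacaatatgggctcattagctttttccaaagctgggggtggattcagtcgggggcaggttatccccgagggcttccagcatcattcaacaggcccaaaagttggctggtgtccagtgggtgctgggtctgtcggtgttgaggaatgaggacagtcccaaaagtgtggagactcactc
Only 1 match lay in these 3 windows, a CCAAT box read on the opposite strand in Slc2a5, beginning at base -72 from the start site. CCAAT was present in 12 of the 31 transporter promoters, or 38.7%, and in 34.0% of all 33469 promoters. GGGCGG was present in 35.5% of the transporter promoters and 30.5% of all, CACGTG in 12.9% and 5.59%, ACGTG in 19.4% and 16.6%, TATAAA in 12.9% and 12.9%, and GTTAAT in 3.23% and 6.45%. CAAAGTCCA was found in 0 of the 31 promoters and in 0.338% of all. These are matches of letters only.

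In Vehicle kidneys the order of levels was headed by sodium-coupled carriers of the proximal tubule. Slc13a3 (NaDC3, the basolateral dicarboxylate carrier) averaged 308 ± 60.5 FPKM (SD, n = 11) and Slc5a2 (SGLT2) 168 ± 23.1 FPKM. Slc5a10 (SGLT5, a carrier of fructose and mannose) followed at 99.9 ± 14.8 FPKM, Slc13a1 (NaS1, sulfate) at 74.7 ± 11.1 FPKM and Slc2a2 (GLUT2, the basolateral exit for glucose) at 56.1 ± 5.94 FPKM. Slc5a10 and Slc13a1 were closer than the sum of their 2 SDs, as were all neighbours between Slc16a12 at 42.6 FPKM and Slc16a7 at 13.3 FPKM. The lowest tested member was Slc2a4 (GLUT4, the insulin-responsive carrier of muscle and fat) at 2.02 ± 0.487 FPKM. Markers of the kidney's own tubule types were high in all groups, and the sum of 3 skeletal muscle markers, the tissue that is richest in GLUT4, was at most 2.64, 2.36 and 2.14 FPKM in Enalapril, Compound 1 and Vehicle animals and 23.1 FPKM in 1 combination animal (4010).

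**Figure D1:**
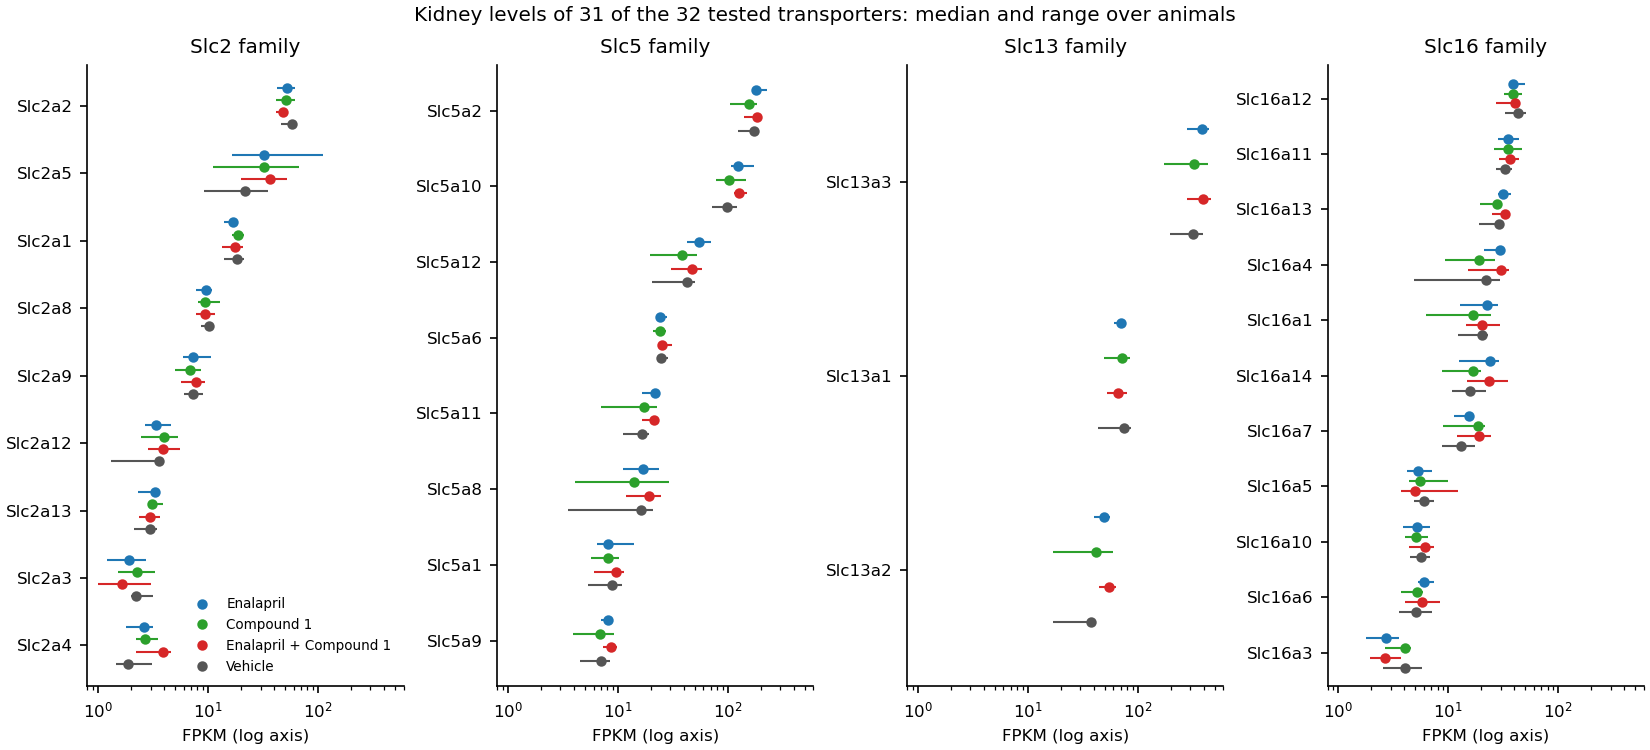
Levels of 31 of the 32 tested transporters in FPKM on a log axis, 1 panel per family, with the median (point) and the range from the lowest to the highest animal (line) for Enalapril (n = 9), Compound 1 (n = 12), Enalapril + Compound 1 (n = 12) and Vehicle (n = 11). Slc13a3 and Slc5a2 were the most abundant, and most ranges of the 4 groups overlapped.

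The comparison of the combination with Vehicle asked what both drugs together changed. Of the 32 tested transporters 6 were called, against 7.38% of all tested genes, with 5 higher (0.994% of all genes were called higher) and 1 lower (6.39% of all genes were called lower). The 5 that rose were the fructose carrier Slc2a5, the insulin-responsive Slc2a4, the citrate and succinate carrier Slc13a2, the lactate and short-chain fatty acid carrier Slc5a8 (SMCT1) and Slc16a14 (MCT14, a member with little-defined substrates). The 1 that fell was Slc16a3 (MCT4), the lactate exporter of glycolytic cells. By adjusted p alone 15 of 32 passed, against 45.6% of all genes, with 12 higher (6.38% of all genes) and 3 lower (39.3% of all genes). The median change of the 32 was 0.17 on the log2 scale, with 24 positive, while the median over all tested genes was -0.18.

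Among the hexose carriers, Slc2a4 was at 1.80, 2.60 and 3.17 FPKM with Enalapril, 2.23, 2.67 and 3.50 with Compound 1, 2.20, 3.88 and 4.60 with the combination, and 1.46, 1.88 and 3.09 with Vehicle. All 12 combination animals lay above the Vehicle median and 10 above the highest Vehicle animal, while Enalapril and Compound 1 animals overlapped both of these groups. The log2 fold change with the combination was 0.87 ± 0.13 (SE, adjusted p = 2.8e-05), with 0.32 for Enalapril (adjusted p = 0.082) and 0.42 for Compound 1 (adjusted p = 0.10). Without animal 4010, in which the muscle markers were seen, it was 0.86 (adjusted p = 7.5e-05).

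Slc2a5 was at 16.6, 32.04 and 111 FPKM with Enalapril, 11.2, 32.1 and 66.8 with Compound 1, 20.0, 36.6 and 52.0 with the combination, and 9.27, 21.8 and 35.4 with Vehicle. Combination and Vehicle ranges overlapped, with 7 of 12 combination animals above the highest Vehicle animal, and 1 Enalapril animal (2012) stood far above the rest. With the combination it changed by 0.88 ± 0.20 (SE, adjusted p = 0.0013), 0.71 with Enalapril (adjusted p = 0.065) and 0.61 with Compound 1 (adjusted p = 0.31). Without animal 2012 the Enalapril value was 0.49 (adjusted p = 0.124).

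Slc2a2, the basolateral glucose exit, was at 42.1, 52.4 and 61.6 FPKM with Enalapril, 41.5, 51.0 and 62.0 with Compound 1, 41.6, 48.0 and 52.5 with the combination, and 46.0, 57.7 and 64.7 with Vehicle. No combination animal was above the Vehicle median and 4 of 12 were below the lowest Vehicle animal. Its change with the combination was -0.24 ± 0.06 (SE, adjusted p = 0.0025), below the fold threshold. Slc2a3 (GLUT3, the high-affinity carrier of neurons) was at 1.20, 1.90 and 2.74 FPKM with Enalapril, 1.51, 2.25 and 3.30 with Compound 1, 0.989, 1.64 and 3.03 with the combination, and 1.99, 2.21 and 3.17 with Vehicle. In 10 of 12 combination animals it was below the lowest Vehicle animal. The combination value was -0.49 ± 0.13 (SE, adjusted p = 0.0055). Slc2a1 (GLUT1), the third most abundant member of its family, was at 13.9, 16.7 and 17.9 FPKM with Enalapril, 16.5, 18.7 and 21.4 with Compound 1, 13.3, 17.4 and 20.7 with the combination, and 14.0, 18.2 and 21.0 with Vehicle. Its groups overlapped and it did not pass the test, with a change of -0.05 with the combination (adjusted p = 0.62). The other 4 tested members of the family, Slc2a8, Slc2a9 (urate), Slc2a12 and Slc2a13 (proton-coupled myo-inositol), had changes between -0.07 and 0.24 and did not pass.

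Among the SLC5 carriers, all 8 tested members had positive changes with the combination and 4 passed the adjusted p, 1 of them past the fold threshold. Slc5a8 was at 11.2, 17.1 and 23.7 FPKM with Enalapril, 4.06, 14.1 and 29.2 with Compound 1, 11.9, 19.1 and 24.7 with the combination, and 3.51, 16.1 and 20.7 with Vehicle. The ranges overlapped, with 3 Vehicle animals below every combination animal. The change on the log2 scale was 0.59 ± 0.23 (SE, adjusted p = 0.039).

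Slc5a10 was at 106, 124 and 174 FPKM with Enalapril, 77.7, 103 and 146 with Compound 1, 115, 128 and 149 with the combination, and 71.3, 98.3 and 120 with Vehicle. In 10 of 12 combination animals it was above the highest Vehicle animal. Against Vehicle this was a change of 0.38 ± 0.07 (SE, adjusted p = 0.00022). Slc5a11 (SMIT2, which takes up myo-inositol) was at 16.6, 21.5 and 22.9 FPKM with Enalapril, 7.05, 17.2 and 22.7 with Compound 1, 16.5, 21.5 and 23.0 with the combination, and 11.2, 16.4 and 19.3 with Vehicle. It was likewise above the highest Vehicle animal in 10 of 12 combination animals. The log2 fold change with the combination was 0.37 ± 0.08 (SE, adjusted p = 0.00057). Slc5a9 (SGLT4, mannose) was at 7.06, 8.13 and 8.97 FPKM with Enalapril, 3.89, 6.88 and 9.25 with Compound 1, 7.38, 8.70 and 9.77 with the combination, and 4.55, 6.95 and 8.39 with Vehicle. It exceeded the highest Vehicle animal in 9 of 12 combination animals. With the combination it changed by 0.34 ± 0.08 (SE, adjusted p = 0.0019). All 3 rose by less than the fold threshold.

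The principal glucose carrier, Slc5a2, was at 164, 180 and 229 FPKM with Enalapril, 104, 156 and 183 with Compound 1, 139, 185 and 201 with the combination, and 125, 172 and 194 with Vehicle. Its groups overlapped widely, and the change of 0.10 ± 0.08 (SE) with the combination did not pass (adjusted p = 0.29, 95% interval -0.06 to 0.26). Slc5a12 (SMCT2, the low-affinity lactate carrier) was at 42.4, 54.3 and 69.6 FPKM with Enalapril, 19.5, 38.1 and 52.0 with Compound 1, 30.7, 47.6 and 57.6 with the combination, and 20.3, 42.5 and 50.04 with Vehicle. The combination value was 0.21 (adjusted p = 0.19). Slc5a1 (SGLT1) and Slc5a6 (the multivitamin carrier) had changes of 0.18 and 0.03 and did not pass.

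Among the SLC13 carriers, Slc13a2 was at 40.3, 49.0 and 55.7 FPKM with Enalapril, 17.0, 41.9 and 59.3 with Compound 1, 44.7, 55.3 and 63.9 with the combination, and 16.9, 37.3 and 40.6 with Vehicle. Every combination animal was above every Vehicle animal, the only 1 of the 32 transporters whose groups did not overlap, as was the case for 1.0% of all tested genes. Its change with the combination was 0.74 ± 0.12 (SE, adjusted p = 5.4e-05). Slc13a3 was at 278, 384 and 440 FPKM with Enalapril, 172, 326 and 438 with Compound 1, 281, 391 and 465 with the combination, and 198, 317 and 389 with Vehicle. Its ranges overlapped, with 6 of 12 combination animals above the highest Vehicle animal. The combination value was 0.33 ± 0.11 (SE, adjusted p = 0.014). Slc13a1, the sulfate carrier, was at 61.1, 70.7 and 78.3 FPKM with Enalapril, 49.0, 71.8 and 85.0 with Compound 1, 52.5, 65.5 and 79.5 with the combination, and 43.8, 75.3 and 86.8 with Vehicle. Its change of -0.20 had an unadjusted p of 0.04 and did not pass after adjustment (adjusted p = 0.079).

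Among the monocarboxylate carriers, Slc16a14 was at 12.6, 24.0 and 28.8 FPKM with Enalapril, 8.76, 16.9 and 19.8 with Compound 1, 14.8, 23.6 and 35.0 with the combination, and 10.8, 15.6 and 22.0 with Vehicle. In 9 of 12 combination animals it was above the highest Vehicle animal, and the Enalapril animals lay at similar levels. The change on the log2 scale was 0.61 ± 0.12 (SE, adjusted p = 0.00044). Slc16a3 was at 1.78, 2.71 and 3.58 FPKM with Enalapril, 2.68, 4.02 and 4.57 with Compound 1, 1.95, 2.67 and 3.73 with the combination, and 2.56, 4.08 and 5.78 with Vehicle. Both groups given Enalapril were lower than both groups without it, with overlapping ranges, and no combination animal was above the Vehicle median. Against Vehicle this was a change of -0.60 ± 0.12 (SE, adjusted p = 0.00057).

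Slc16a7 (MCT2, a high-affinity pyruvate and lactate carrier) was at 11.4, 15.5 and 16.03 FPKM with Enalapril, 9.03, 18.5 and 21.8 with Compound 1, 11.9, 19.0 and 24.7 with the combination, and 8.85, 13.1 and 17.4 with Vehicle. In 8 of 12 combination animals it was above the highest Vehicle animal, while no Enalapril animal was. The log2 fold change with the combination was 0.47 ± 0.12 (SE, adjusted p = 0.0023). Slc16a4 (MCT5) was at 21.0, 29.7 and 32.7 FPKM with Enalapril, 9.27, 19.2 and 26.9 with Compound 1, 15.0, 30.5 and 36.0 with the combination, and 4.93, 22.2 and 29.7 with Vehicle. Its Vehicle range was wide and reached lowest in animal 1004. With the combination it changed by 0.56 ± 0.22 (SE, adjusted p = 0.041). Slc16a13 (MCT13) was at 28.2, 31.4 and 37.1 FPKM with Enalapril, 19.6, 27.6 and 29.8 with Compound 1, 24.9, 33.0 and 36.6 with the combination, and 18.9, 28.8 and 31.9 with Vehicle. In 6 of 12 combination animals it was above the highest Vehicle animal. Its change with the combination was 0.27 ± 0.08 (SE, adjusted p = 0.011). All 3 rose by less than the fold threshold.

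Slc16a12 and Slc16a11, both abundant in this family, did not pass against Vehicle. Slc16a12 (MCT12, creatine) was at 36.6, 39.2 and 50.3 FPKM with Enalapril, 31.8, 38.6 and 46.7 with Compound 1, 27.1, 40.6 and 45.4 with the combination, and 33.0, 43.4 and 50.6 with Vehicle. Slc16a11 was at 28.2, 35.2 and 44.4 FPKM with Enalapril, 26.2, 34.8 and 46.8 with Compound 1, 28.7, 36.1 and 43.9 with the combination, and 27.0, 33.0 and 38.3 with Vehicle. In both the groups overlapped, and the changes with the combination were -0.13 and 0.16 (adjusted p = 0.20 and 0.055). Slc16a1 (MCT1), Slc16a5, Slc16a6 and Slc16a10 (aromatic amino acids) had changes between -0.17 and 0.18 and did not pass either. The result for Slc16a5 depended on single animals. Its level was 12.2 FPKM in combination animal 4002, while 6 of 12 combination animals were below the lowest Vehicle animal. With 1 animal left out at a time its change was -0.28 to -0.13, with an adjusted p of 0.010 to 0.44.

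**Figure D2:**
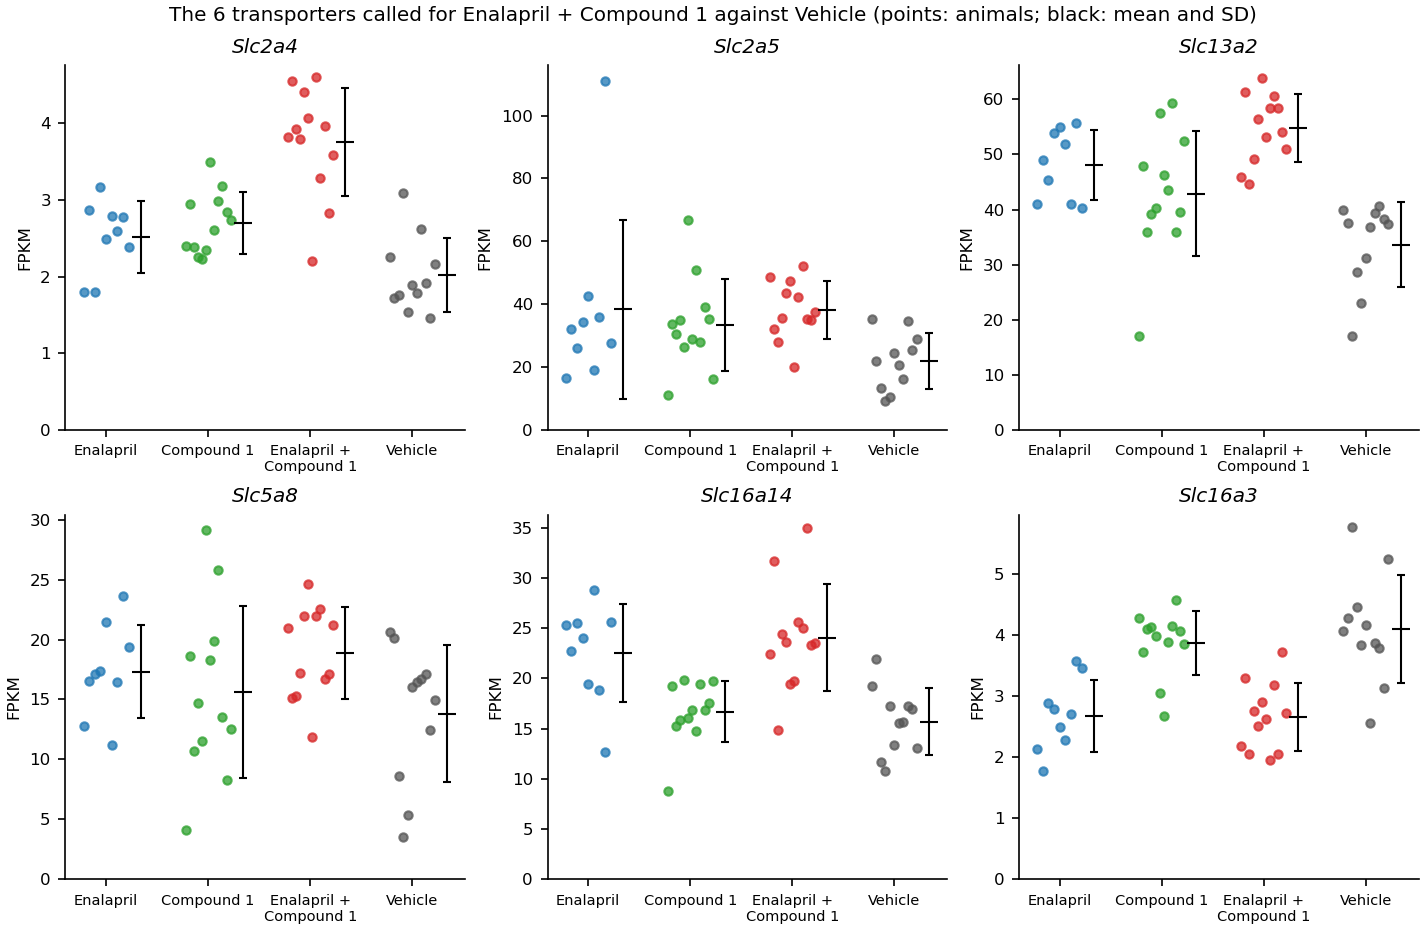
FPKM of the 6 called transporters in every animal (points), with mean and SD (black), for Enalapril, Compound 1, Enalapril + Compound 1 and Vehicle. Combination animals reached 4.60 FPKM of Slc2a4 against a highest Vehicle value of 3.09, and Slc13a2 did not overlap between these 2 groups.

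The 6 calls were not equally stable. Slc2a4, Slc2a5 and Slc13a2 stayed called in each of the 23 fits that left out 1 animal, with values of 0.83 to 0.94, 0.77 to 0.97 and 0.64 to 0.77. Without Vehicle animals 1003 and 1004 these 3 remained called (0.92, 0.70 and 0.61), while Slc16a14 (0.51), Slc5a8 (0.33, adjusted p = 0.128) and Slc16a3 (-0.53) were not. Leaving out animal 1003 or animal 1004 alone gave the same 3 calls. Slc16a14 also fell below the fold threshold without combination animal 4002 (0.57) or 4010 (0.56). Slc5a8 also lost its call without Vehicle animal 1006 (0.47, adjusted p = 0.0779) or combination animals 4001, 4005, 4006, 4008, 4009 or 4012, with values of 0.55 to 0.57 and adjusted p of 0.0541 to 0.0638. Slc16a3 lies at the edge of the fold threshold and also left it without Vehicle animals 1002, 1007 or 1012 or combination animals 4001, 4003, 4005, 4008 or 4010, with values of -0.60 to -0.57 and the adjusted p at most 0.00132. Slc16a4, not among the 6, passed the fold threshold without Vehicle animals 1001, 1008, 1010, 1011 or 1012 or combination animals 4002 or 4007, at up to 0.64. Its adjusted p was 0.05 or more without any 1 of 11 animals (up to 0.081), and without Vehicle animal 1004 its change was 0.37 (adjusted p = 0.049). Without both animals 1003 and 1004 it was 0.27 (adjusted p = 0.114), Slc13a3 was at 0.21 (adjusted p = 0.0503), and Slc13a1 passed at -0.28 (adjusted p = 0.0026), while 12 of the 15 transporters that had passed the adjusted p still did.

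Markers of the proximal tubule were measured in the same animals. The sum of 10 markers of the convoluted part was 2597 to 3273 FPKM with Enalapril, 1180 to 2787 with Compound 1, 2265 to 3155 with the combination and 1684 to 2783 with Vehicle, and 0 of the 10 were called against Vehicle. The sum of 7 markers of the straight part was 883 to 1241 FPKM with Enalapril, 515 to 1160 with Compound 1, 803 to 1343 with the combination and 446 to 1184 with Vehicle. All 4 groups overlapped in both sums. Of these 7, Slc7a13, Slc22a7 and Slco1a1 were called higher both with Enalapril (0.84, 0.67 and 1.03) and with the combination (0.82, 0.80 and 1.05), against 0.49% and 0.994% of all genes called higher, and the other 4 were not called. In bulk kidney, fewer cells of a type and less RNA per cell cannot be told apart.

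With the mean log2 level of all 17 proximal tubule markers as a covariate, a fit chosen after seeing the data, only Slc2a4 of the 6 stayed called with the combination (0.81, adjusted p = 0.0025). Slc13a2 was at 0.44 (adjusted p = 0.0076), Slc16a14 at 0.35 (adjusted p = 0.043) and Slc16a3 at -0.45 (adjusted p = 0.028), each below the fold threshold. Slc2a5 was at 0.24 (adjusted p = 0.20), and the sign of Slc5a8 turned to -0.13 (adjusted p = 0.60), as did that of Slc16a4 (-0.20). Slc5a10 (0.25, adjusted p = 0.019), Slc5a11 (0.27, adjusted p = 0.027) and Slc2a2 (-0.24, adjusted p = 0.019) kept their sign and passed. The median of the 32 was -0.01 in that fit, beside -0.20 over all genes, and 7 of the 15 transporters that had passed the adjusted p still did. In all, 9 of the 32 passed in that fit, 5 higher and 4 lower.

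Of 6 macrophage and 5 fibroblast markers, 0 had a positive change with Enalapril or with the combination. Over all 13482 genes, 10505 and 10465 changes were negative in these comparisons. Of all genes, 4.04% and 6.39% were called lower. The sum of 6 macrophage markers was 166 to 241 FPKM with Enalapril, 188 to 411 with Compound 1, 162 to 263 with the combination and 222 to 450 with Vehicle, and 3 of 6 (Cd68, Cd14 and C1qb) were called lower with Enalapril and with the combination. Of 5 fibroblast markers, Col1a1 and Col1a2 were called lower with Enalapril and Col1a1 with the combination. The sum of the fibroblast markers was 143 to 271 FPKM with Enalapril, 188 to 373 with Compound 1, 158 to 267 with the combination and 199 to 376 with Vehicle. Their part in the lower Slc16a3 and Slc2a3 levels was not tested. Of the adipocyte markers, where GLUT4 is also found, 3 were tested. Cidec was called higher with the combination (0.59), as were 0.994% of all genes, while the median of the 3 was -0.17.

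**Figure D3:**
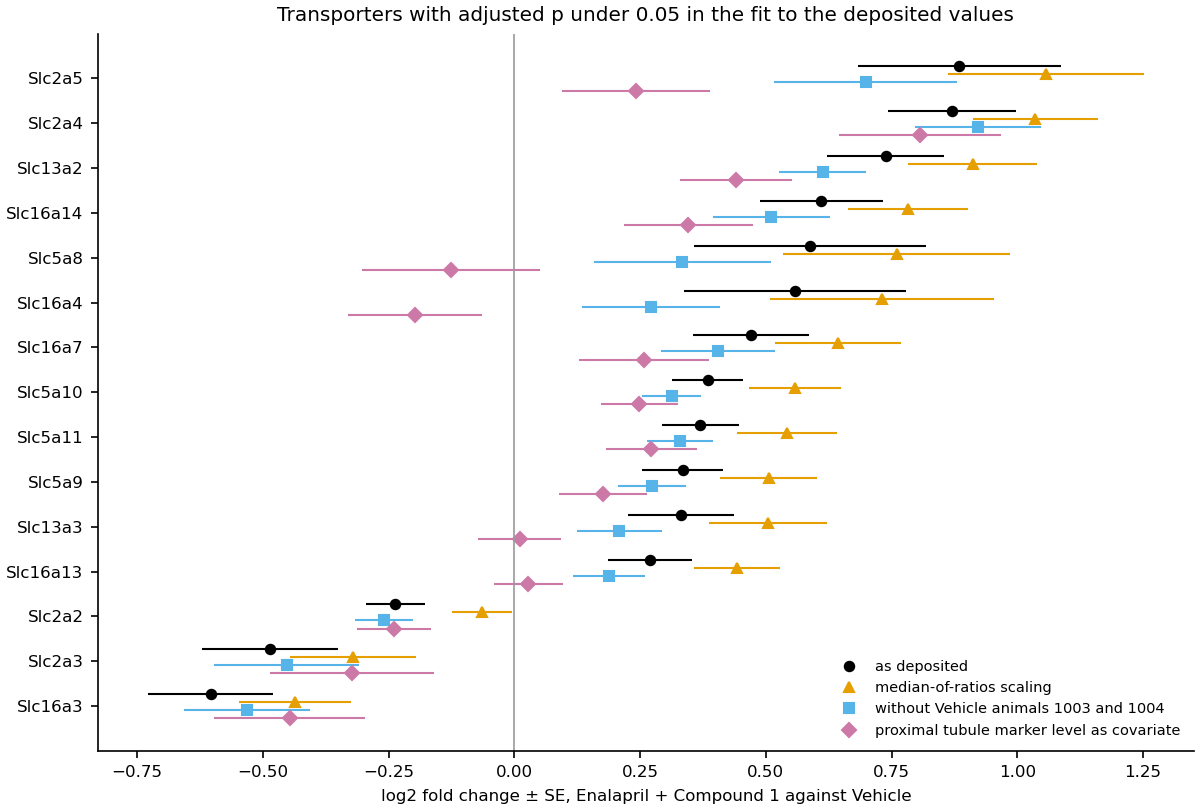
Change with Enalapril + Compound 1 against Vehicle, log2 fold change with SE, for the 15 transporters with an adjusted p under 0.05, from the deposited values, after median-of-ratios scaling, without Vehicle animals 1003 and 1004, and with the proximal tubule marker level as a covariate. Slc2a4 stayed between 0.81 and 1.04, while Slc5a8 and Slc16a4 turned to -0.13 and -0.20 with the covariate.

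With Enalapril alone against Vehicle, 0 of the 32 transporters were called, against 4.53% of all tested genes. An unadjusted p under 0.05 was found for 13 of the 32 and for 5772 of all 13482 genes. The adjusted p was passed by 8, against 30.2% of all genes. The 7 that rose below the fold threshold were 4 SLC5 carriers, Slc13a2, Slc16a13 and Slc16a14, and the 1 that fell was Slc16a3. By adjusted p alone 3.57% of all genes were higher and 26.6% lower, while 4.04% were called lower. Slc13a2 was above the highest Vehicle animal in 8 of 9 Enalapril animals (0.55 ± 0.13, adjusted p = 0.0046). The myo-inositol carrier Slc5a11 (0.36 ± 0.09, adjusted p = 0.0044), the fructose and mannose carrier Slc5a10 (0.39 ± 0.09, adjusted p = 0.0045), the lactate carrier Slc5a12 (0.46 ± 0.12, adjusted p = 0.0070) and the mannose carrier Slc5a9 (0.25 ± 0.09, adjusted p = 0.034) rose together. Slc5a12 was above the highest Vehicle animal in 7 of 9 Enalapril animals. Slc16a14 (0.51 ± 0.14, adjusted p = 0.0078) and Slc16a13 (0.25 ± 0.09, adjusted p = 0.031) rose, and Slc16a3 fell to just above the fold threshold (-0.60 ± 0.14, adjusted p = 0.0031). The median of the 32 was 0.14, beside -0.15 over all genes, and SGLT2 had a change of 0.16 that did not pass (adjusted p = 0.14).

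Leaving out 1 animal at a time gave between 0 and 3 calls in this comparison. Slc16a3 was called without any 1 of 10 animals (Vehicle 1006, 1008, 1009, 1010 or 1011, or Enalapril 2007, 2008, 2011, 2012 or 2103), at values down to -0.66. Slc16a4 was called without Vehicle 1001, 1008, 1010 or 1011 or Enalapril 2010, at up to 0.65, and Slc2a5 without Vehicle 1001 or 1010 or Enalapril 2001 or 2010, at up to 0.83. Slc16a14 was called without Enalapril 2012 (0.61). Of the 8 that had passed the adjusted p, 6 did so whichever animal was left out, while Slc16a13 lost it without any 1 of 4 animals and Slc5a9 without any 1 of 6 (adjusted p up to 0.065 and 0.062). Without Vehicle animals 1003 and 1004, 7 of the 8 passed, with Slc13a2 at 0.42 (adjusted p = 0.0048) and Slc16a13 at 0.17 (adjusted p = 0.071), and Slc16a4 (0.30, adjusted p = 0.041) and Slc2a4 (0.37, adjusted p = 0.045) passed as well.

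With the proximal tubule covariate 0 of the 8 passed the adjusted p, and the median of the 32 was -0.06. With the mean level of 7 inner medulla markers as a covariate 0 of the 8 passed either, with Slc13a2 at 0.39 (adjusted p = 0.18), and the median of the 32 was 0.08. Those markers averaged 3.99 ± 0.175 with Enalapril and 4.21 ± 0.150 with Vehicle (log2, SD). With the combination, where they averaged 4.11 ± 0.134, 12 of the 15 transporters still passed with this covariate and Slc2a5, Slc2a4 and Slc13a2 stayed called. In all, 14 of the 32 passed there, 9 higher and 5 lower.

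With Compound 1 alone, 0 of the 32 transporters were called, against 0.2% of all tested genes, and 0 passed the adjusted p, against 0.475%. At an unadjusted p under 0.05 there were 4 of the 32 and 1793 of all 13482 genes. Of the 4, Slc2a5 (0.61 ± 0.25, adjusted p = 0.31), Slc16a7 (0.43 ± 0.12, adjusted p = 0.12) and Slc2a4 (0.42 ± 0.11, adjusted p = 0.10) were positive. Slc16a12 (-0.15 ± 0.07, adjusted p = 0.34) was negative. For Slc2a4 all 12 Compound 1 animals were above the Vehicle median, but only 2 exceeded the highest Vehicle animal. Without Vehicle animals 1003 and 1004 it passed at 0.47 (adjusted p = 0.048), below the fold threshold. With 1 animal left out at a time the adjusted p was 0.023 to 0.18 for Slc2a4 and 0.0062 to 0.22 for Slc16a7, with 0 calls. With sample weights 2 of the 32 passed, both higher. With the inner medulla covariate 4 passed and Slc2a5 was called (0.79, adjusted p = 0.022), and those markers averaged 4.30 ± 0.172 with Compound 1 and 4.21 ± 0.150 with Vehicle (log2, SD). The median of the 32 was -0.03, beside -0.07 over all genes. The 3 comparisons share the same Vehicle animals.

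**Figure D4:**
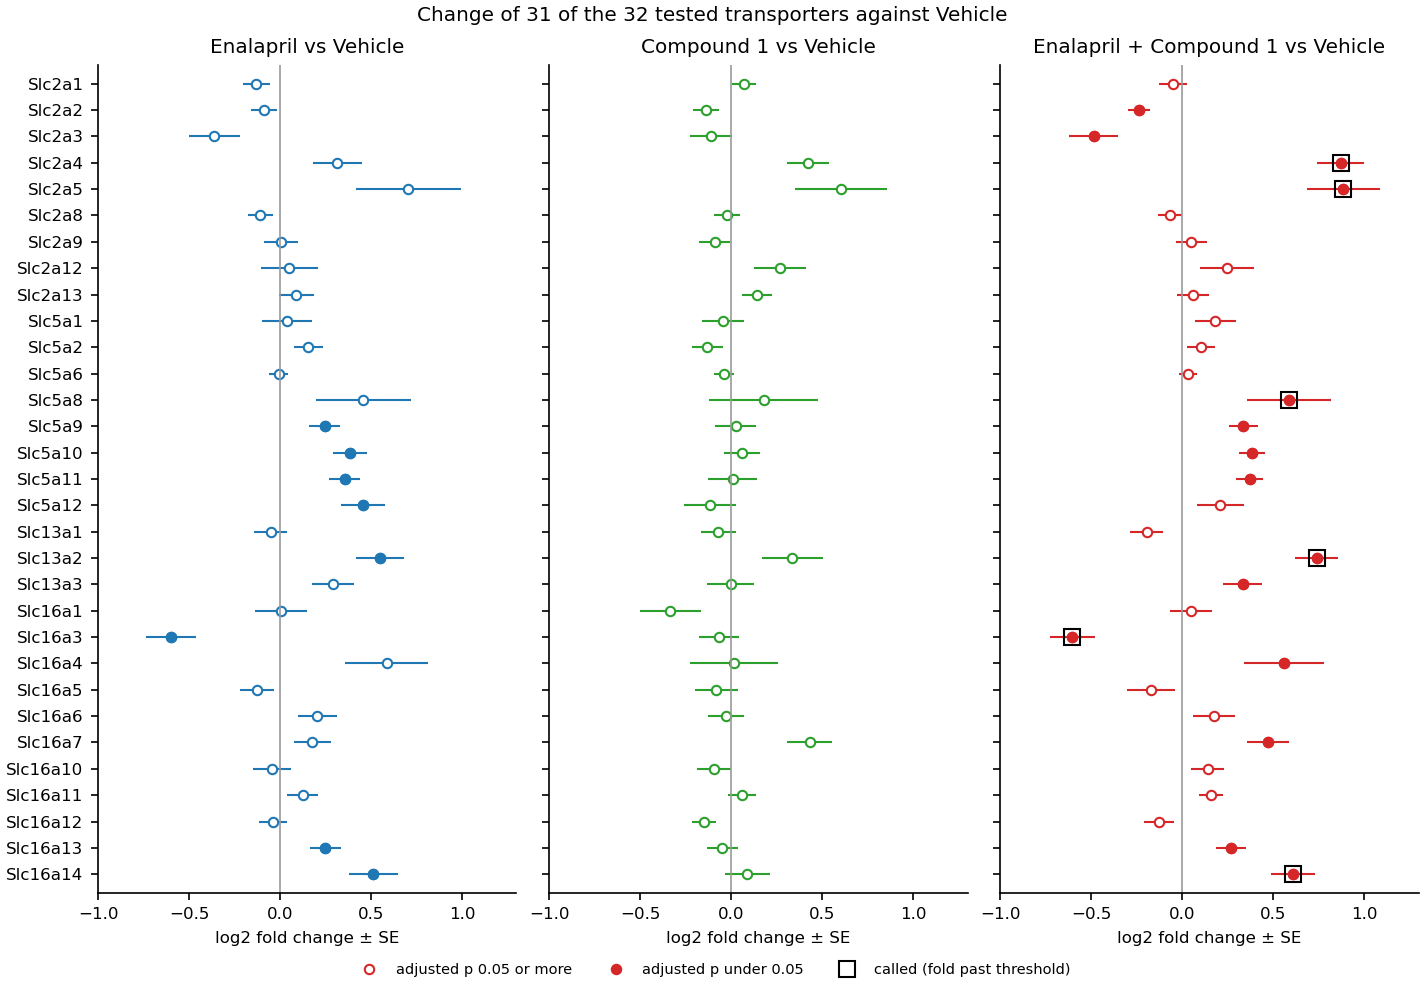
Log2 fold change with SE of 31 of the 32 tested transporters against Vehicle, for Enalapril, Compound 1 and Enalapril + Compound 1. Filled points passed an adjusted p of 0.05 (8, 0 and 15 transporters) and squares mark the 6 calls, all with the combination.

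The direct comparison of the combination with Enalapril asked what Compound 1 added. Here 0 of the 32 were called and 0 passed the adjusted p, against 0.00742% and 0.0519% of all genes. At an unadjusted p under 0.05 there were 1401 of all 13482 genes and 3 of the 32. These were Slc2a4 (0.55 ± 0.12, adjusted p = 0.072), Slc16a7 (0.29 ± 0.12, adjusted p = 0.38) and Slc2a2 (-0.15 ± 0.07, adjusted p = 0.43). Slc2a4 was higher than the highest Enalapril animal in 10 of 12 combination animals, and it was called with sample weights, without Enalapril animal 2008 and without combination animal 4007. With 1 animal left out at a time its value was 0.50 to 0.62, and with the proximal tubule covariate it was 0.56 (adjusted p = 0.034), below the fold threshold. The median of the 32 was 0.03, beside -0.02 over all genes.

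The comparison of the combination with Compound 1 also called 0 of the 32, against 2.33% of all genes. An unadjusted p under 0.05 was found for 17 of the 32 and for 4895 of all 13482 genes. The adjusted p was passed by 13, against 22.2% of all genes. Of the 13, 11 were higher and 2 lower, against 4.72% and 17.4% of all genes by adjusted p alone, while 2.05% were called lower. The 11 higher ones included glucose, mannose and myo-inositol carriers, Slc5a2 (0.23 ± 0.08, adjusted p = 0.026), Slc5a9 (0.31 ± 0.09, adjusted p = 0.012), Slc5a10 (0.33 ± 0.08, adjusted p = 0.0058) and Slc5a11 (0.36 ± 0.11, adjusted p = 0.013). The dicarboxylate carriers Slc13a2 (0.40 ± 0.13, adjusted p = 0.025) and Slc13a3 (0.33 ± 0.11, adjusted p = 0.028) were higher too, as was Slc2a4 (0.45 ± 0.11, adjusted p = 0.0047). Of the monocarboxylate family, Slc16a14 (0.52 ± 0.13, adjusted p = 0.0035), Slc16a4 (0.54 ± 0.20, adjusted p = 0.043) and Slc16a13 (0.32 ± 0.08, adjusted p = 0.0029) were higher and Slc16a3 (-0.54 ± 0.11, adjusted p = 0.0014) was lower. Slc2a3 (-0.37 ± 0.14, adjusted p = 0.041) was the other member that fell. The median was 0.23, beside -0.10 over all genes. With the proximal tubule covariate 1 of the 13 still passed (Slc16a3), and with the inner medulla covariate 2 did (Slc16a3 and Slc2a4), where those markers averaged 4.11 ± 0.134 with the combination and 4.30 ± 0.172 with Compound 1 (log2, SD). Slc13a2 lost its adjusted p without Compound 1 animal 3001 (0.29, adjusted p = 0.063), Slc5a2 without 1 of 2 animals, Slc13a3 without 1 of 4, Slc2a3 without 1 of 13 and Slc16a4 without 1 of 14 (adjusted p up to 0.102). Slc16a4 was called without Compound 1 animal 3010 or 3011 or combination animal 4002 or 4007, at up to 0.62.

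The interaction asks whether the combination departs from the sum of both single-drug groups. Compound 1 ended at 3 mg/kg/day alone but at 1 mg/kg/day in the combination, so the interaction cannot test the sum at equal doses. It gave 0 calls and 0 transporters at an unadjusted p under 0.05. Over all 13482 genes, 0.00742% were called and 579 genes had an unadjusted p under 0.05. Estimates ran between -0.43 and 0.38. For Slc2a4 it was 0.13 ± 0.17 (SE) with a 95% interval of -0.21 to 0.47. In simulated data 58% of 50 interaction changes of 1.6-fold were recovered, so 0 calls do not show that the effects add up.

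The median of all genes lay below 0, and other scalings between libraries changed some calls. After median-of-ratios scaling all genes together had medians within 0.01 of 0 in both comparisons against Vehicle that involved Enalapril, and the 32 transporters had medians of 0.29 (Enalapril) and 0.34 (combination). The combination then called 7, all higher, with Slc16a4 (0.73) and Slc16a7 (0.64) added and Slc16a3 (-0.44, adjusted p = 0.0040) below the fold threshold. Enalapril called 5, all higher, namely Slc2a5 (0.86), Slc16a4 (0.74), Slc13a2 (0.70), Slc16a14 (0.67) and Slc5a12 (0.61). By adjusted p alone, 24 of the 32 passed with the combination (23 higher) and 18 with Enalapril (17 higher). Before that scaling 15 and 8 passed, so whether a transporter passed depended in part on the scaling. Slc2a2 was at -0.06 with the combination (adjusted p = 0.45) and Slc2a3 at -0.32 (adjusted p = 0.052), so that their lower values did not pass under this scaling. Without mitochondrial transcripts, a scaling chosen after seeing the data, the combination called 6, with Slc16a3 at -0.52 (adjusted p = 0.0016) below the fold threshold and Slc16a4 added (0.65, adjusted p = 0.017), and Enalapril called Slc2a5 (0.82), Slc16a4 (0.70), Slc13a2 (0.66) and Slc16a14 (0.63). Over all genes the calls with Enalapril were 205 higher and 164 lower after median-of-ratios scaling and 66 and 545 before it. With the combination they were 337 and 311 after that scaling and 134 and 861 before it. Without mitochondrial transcripts 2.86% of all genes were called with Enalapril and 5.53% with the combination.

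The 9 transporters below the filter had mean levels under 1 FPKM in every group. Slc5a4 was listed above 0 in 1 of 44 animals, Slc2a7 in 10 and Slc5a7 (choline) in 4. Slc2a6 (GLUT6) was at 0.354, 0.479 and 0.572 FPKM with Enalapril, 0.591, 0.935 and 1.53 with Compound 1, 0.342, 0.585 and 0.865 with the combination, and 0.428, 0.946 and 1.98 with Vehicle. No Enalapril or combination animal was above the Vehicle median. In a fit without the filter, over 21614 entries, it was lower with Enalapril (-0.83 ± 0.19, adjusted p = 0.0070) and with the combination (-0.63 ± 0.19, adjusted p = 0.015), and so was Slc2a10 (GLUT10) with Enalapril (-0.64 ± 0.21, adjusted p = 0.044). Of the 21614 entries, 653 were called lower with Enalapril and 1112 with the combination. Slc2a6 was also lower with the combination than with Compound 1 (-0.64 ± 0.16, adjusted p = 0.0084), where 378 entries were called lower. Slc13a4, Slc13a5 (the citrate carrier of liver), Slc5a5 (iodide) and Slc16a8 had group means of at most 0.304 FPKM.

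Genes that work with these carriers were examined as 3 lists, which were chosen with earlier results of these data known. Of 14 tested partners and regulators, Arrdc4, an arrestin domain protein known to lower glucose uptake, was lower with Enalapril (-0.66 ± 0.10, adjusted p = 0.00024) and with the combination (-0.80 ± 0.11, adjusted p = 2.0e-05). Its levels were 3.63, 4.14 and 5.74 FPKM with Enalapril, 3.75, 5.23 and 6.59 with Compound 1, 2.67, 3.49 and 6.33 with the combination, and 5.71, 6.34 and 9.49 with Vehicle. Sgk1, a kinase known to raise the activity of several sodium-coupled carriers, was higher with Enalapril (0.61 ± 0.14, adjusted p = 0.0027) at 63.8, 88.4 and 116 FPKM with Enalapril, 46.2, 60.8 and 100 with Compound 1, 49.6, 75.1 and 123 with the combination, and 41.5, 53.4 and 88.8 with Vehicle. The other 12 were not called. Of all tested genes, 4.53% were called with Enalapril and 7.38% with the combination. The median of the list was -0.05 with Enalapril and -0.01 with the combination.

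Of 20 tested enzymes that handle the transported substrates, 1 was called, with the combination, against 7.38% of all tested genes. Khk, ketohexokinase, the first enzyme of fructose use, was at 240, 280 and 373 FPKM with Enalapril, 101, 236 and 304 with Compound 1, 262, 305 and 356 with the combination, and 120, 212 and 262 with Vehicle. With Enalapril 0 of the 20 were called, although the ranges of Khk with Enalapril and with the combination overlapped. With the combination Khk was higher (0.62 ± 0.09, adjusted p = 3.6e-05), and the median of the list was 0.20. The fructose carrier Slc2a5 rose in the same comparison, and a link between Khk and Slc2a5 was not tested. Of the markers of the straight proximal tubule, 3 of 7 were called higher in the same comparison, and their part in the Khk level was not tested. Of 11 other renal carriers of urate, osmolytes and dicarboxylates 0 were called with Enalapril, with Compound 1 or with the combination. The shares of all tested genes called were 4.53%, 0.2% and 7.38%, and the medians of the 11 were 0.28, -0.01 and 0.31.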

How the data were processed

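Kidney RNA of 44 obese ZSF1 rats was sequenced by the authors as poly(A) libraries, and FPKM per gene on build rn6 were deposited. The aligner is not given in the sources used here, and 2 columns with no name or values were left out. Groups came from the labels and doses from the study's methods. The authors tested raw counts with DESeq2. As only FPKM were used here, the tests ran on log2(FPKM + 0.1) in limma 3.58.1 (R 4.3.3, trend on), with the study's filter and thresholds. Comparisons against Vehicle used the 2 groups concerned, and the others 1 fit of all 4 groups. Because FPKM are shares of each library, a change in abundant transcripts moves all other values. The calculation was tested on simulated data.

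Full values are given for members called in any comparison, members with adjusted p under 0.05, and the 3 most abundant tested members of each family, and the rest by ranges. Of the tested members 1 is not reported here by itself, and counts and medians include it. Of the partner lists, called genes are named. Members and lists were chosen with earlier results of these data known. Alternatives covered scaling, pseudocount, filter, fold threshold, sample weights, covariates and left-out animals. Tables were handled in Python 3.11.15. Promoter sequences came from RefSeq (GRCr8) and were not used in any test.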

Additional observations from a re-analysis of the deposited data

Results flagged for a closer look

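In the Enalapril group of 9 animals, 6 of the 40 transporters examined had 1 animal far from the others by Dixon's criterion. For a single gene with normally distributed values chance meets this rule in about 1 in 20 groups. That rate does not hold for genes near 0, and the 40 were measured in the same animals. Animal 2012 was the highest for 3 of them, with Slc2a5 at 110.9 FPKM (next 42.5), Slc2a9 at 10.6 FPKM (next 7.75) and Slc5a1 at 14.1 FPKM (next 9.81). Animal 2010 was the highest for Slc5a2, at 229 FPKM (next 196), and the lowest for Slc16a7, at 11.4 FPKM (next 14.1). Animal 2009 was the only one of the 9 with Slc5a7 above 0, at 0.0067 FPKM, so that this gene had to meet the rule. Without animal 2012 the change of Slc2a5 with Enalapril was 0.49 (adjusted p = 0.124 by limma), beside 0.71 (adjusted p = 0.065) with it.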

How the results depend on the processing

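With Enalapril, 0 transporters were called, against 4.53% of all genes. Percentages in brackets are the shares of all genes called in the same setting. There were 5 calls with median-of-ratios scaling (2.74%) and 4 with quantile normalization (2.44%). A pseudocount of 0.01 gave 1 (4.92%), no filter 2 (3.36%) and no fold threshold 8 (30.2%). With FPKM above 5 there was 1 (3.03%), and with all 4 groups in 1 fit 2 (4.56%). Without animals 2103 and 3102 to 3105 there was 1 (5.65%), and without the 6 animals listed last 1 (4.38%). Without mitochondrial transcripts, a setting added after seeing the data, there were 4 (2.86%). Leaving out 1 animal gave 0 to 3. With Compound 1, 0 calls (0.2%) became 1 with the inner medulla covariate (0.749%), and there were 0 whichever animal was left out. With the combination, 6 calls (7.38%) became 7 with median-of-ratios scaling (4.81%), 7 with quantile normalization (4.06%) and 3 with log2(FPKM + 1) (3.26%). There were 4 with FPKM above 5 (4.94%), 4 without the 6 animals listed last (7.76%) and 15 with no fold threshold (45.6%). The inner medulla covariate (5.57%), sample weights (6.88%) and leaving out Vehicle animals 1003 and 1004 (5.18%) gave 3 each. Leaving out 1 animal gave 3 to 7. The proximal tubule covariate, added after seeing the data, gave 1 (4.36%). The change of Slc5a8 reversed to -0.13 with that covariate. Against Enalapril the combination gave 0 calls (0.00742%), 1 with sample weights (0.134%) and 0 to 1 with 1 animal left out. Against Compound 1 it gave 0 (2.33%), with 2 after median-of-ratios scaling (1.76%), 3 after quantile normalization (1.58%) and 1 with no filter (1.96%). No fold threshold gave 13 (22.2%), sample weights 2 (3.61%) and leaving out 2103 and 3102 to 3105 gave 1 (2.42%). With 1 animal left out there were 0 to 1. The interaction gave 0 calls in each setting run. Apart from the settings where the construction shows it (no fold threshold, fewer genes, fewer animals), the cause was not tested. Of the settings other than leaving out 1 animal, Slc2a4 kept its call with the combination in 14 of 14 (at FPKM above 5 it was not tested). Slc2a5 and Slc13a2 lost theirs in 1, the proximal tubule covariate. Some of these settings could not lose a call. Leaving out 2103 and 3102 to 3105 removed no combination or Vehicle animal, and dropping the fold threshold only loosened the rule. No paired analysis was possible because the groups share no animal numbers. Only relative depths could be had from FPKM, not read counts, so no counting interval was given.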

Other observations

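Family totals were described by the sum of FPKM in each animal. The 11 Slc5 genes summed to a median of 447 FPKM with Enalapril, 372 with Compound 1, 436 with the combination and 379 with Vehicle. The 5 Slc13 genes summed to 504 FPKM with Enalapril, 449 with Compound 1, 514 with the combination and 437 with Vehicle, and the 13 Slc16 genes to 253, 221, 264 and 231 FPKM in the same order of groups. The 12 Slc2 genes summed to 135 FPKM with Enalapril, 133 with Compound 1, 135 with the combination and 131 with Vehicle, so that a lower Slc2a2 level stood beside a higher Slc2a5 level in the combination. In each family the lowest to highest animals of all 4 groups overlapped.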
